A study of Mus musculus with 18 samples.

Results

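The step from mesoderm (MES) to hemangioblast (HB) was described from RNA-seq of cells that were differentiated from a mouse embryonic stem cell (ESC) line and sorted by flow cytometry. It is covered by 4 of the 18 samples of the series, 2 replicates per stage. The ESC line is of strain 129, carries a GFP reporter for *Brachyury* (*T*) and was kept on embryonic fibroblasts before it was allowed to form embryoid bodies. MES cells were sorted as GFP-positive and FLK1-negative, and HB cells as positive for both, so that all cells of both stages had the reporter and differed by design in FLK1, the product of *Kdr*. All cells came from a single reporter line in culture. The paper's sorting scheme divides GFP-positive cells of embryoid bodies by FLK1 into these 2 fractions. Its methods also describe part of the MES cells as differentiated further towards HB. A rise or fall below is a difference between the sorted fractions and was not followed over time in the same cells. The deposited table gives expression in FPKM (a level that allows for the length of the transcript and the depth of the library) with the replicates of a stage already combined into 1 value, so the difference between the stages has no replicate check, and no value has an error or a test. Of 20310 genes in the table, 10210 had at least 1 FPKM in MES or HB, and these genes are the subject here. In sorted populations, fewer cells of a type and less RNA per cell cannot be told apart.

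The hemangioblast is a mesodermal precursor with the potential to form endothelium, blood and smooth muscle. It arises from the posterior primitive streak, where epiblast cells lose E-cadherin, leave the epithelium and become migratory, under the influence of Nodal, Wnt, FGF and BMP signals. Cells that express FLK1, the main receptor of VEGF, then activate the ETS factor ETV2 and the TAL1, LMO2 and GATA factors that together start the endothelial and blood programmes, while neighbouring lateral plate cells give rise to heart.

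Changes are given as the value in HB minus that in MES on log2(FPKM + 1), a scale that understates the change of weakly expressed genes, and a gene is said to rise or fall only where it changed at least 2-fold on this scale. By this limit 258 genes rose, 2.53% of the 10210, and 337 fell, 3.30%, while 9615 stayed within 2-fold. At least 4-fold changes were seen for 35 genes upwards and 53 downwards. The median change over all 10210 genes was 0.13. It was -0.01 once MES and HB were brought to 1 common upper quartile (upper quartile scaling), a shift of 0.14, so that list medians are best read against 0.13 rather than 0. Genes that rose had a median of 2.17 FPKM in MES and 8.54 in HB, and genes that fell had a median of 5.97 in MES and 1.38 in HB. The table also covers ESC, HP (CD41-positive hematopoietic progenitors) and MAC (macrophages). Over these 3 stages, MES and HB, 162 of the 258 genes that rose had their highest value in HB, 50 in HP, 44 in MAC and 2 in ESC. Of the 337 that fell, 131 were highest in MES, 126 in ESC, 76 in MAC and 4 in HP. Hemogenic endothelium (HE), the stage between HB and HP, was not used, so a highest value is that among the stages used. The genes nearest to the limits show how fine they are. *Sat2*, with 1.0003 FPKM in MES, was just inside the 1 FPKM limit and *Tnni3*, with 0.9997, just outside. *Grap2*, with 0.0657 FPKM in MES and 1.14 in HB, was the last gene counted as rising, and *Adssl1*, with 3.88 and 8.77, the first that was not. *Htra1*, with 3.36 and 1.18 FPKM, was the last counted as falling, and *Tmem8*, with 2.19 and 0.597, the first that was not.

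**Figure D1:**
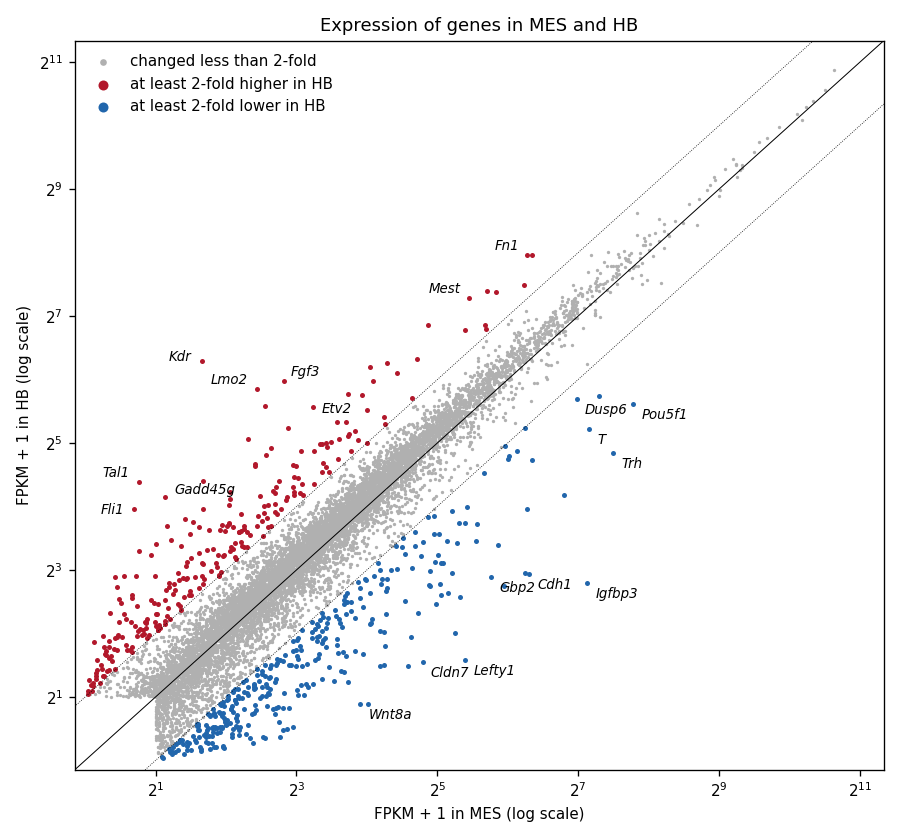
Each point is 1 of the 10210 genes, plotted by FPKM + 1 in MES (x axis) and in HB (y axis), both on log scales, with the line of equal values solid and the 2-fold limits dotted. The 258 genes that rose are red and the 337 that fell are blue. *Kdr* lies farthest above the line and *Igfbp3* farthest below it among the genes with at least 10 FPKM.

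The sorting markers were checked first. *Kdr*, which defined the sort and is no finding, had 2.15 FPKM in MES and 77.6 in HB. *T*, which drives the reporter used for both stages, had 142 FPKM in MES and 36.4 in HB and so fell by 1.94 on the log2 scale, although both populations were sorted as GFP-positive. It was 3.36 FPKM in ESC and 0.141 in HP. *Mesp1*, a marker of nascent mesoderm, had 52.9 FPKM in MES and 42.9 in HB. The pluripotency factor *Pou5f1* was still measured at 219.6 FPKM in MES and at 47.9 in HB, against 383 in ESC and 1.19 in HP.

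Apart from *Kdr*, the largest rises among genes with at least 10 FPKM were those of the blood and endothelial TF genes *Tal1*, *Lmo2* and *Fli1*. *Tal1* went from 0.704 to 19.9 FPKM, *Lmo2* from 4.45 to 56.5 and *Fli1* from 0.623 to 14.6, log2 changes of 3.62, 3.40 and 3.27. On GRCm38 these genes lie at chr4:115059527-115071755, chr2:103957995-103981878 and chr9:32422208-32541368. They were followed by *Fgf3*, *Nrp1*, *Gadd45g*, *Tbx3*, *Fgf10*, *Cxcr7*, *Adra2b*, *Vstm2b*, *Etv2*, *Prdm6* and *Cxcr4*, with changes between 3.16 and 2.29. Among them *Gadd45g*, a stress and cell cycle regulator, rose from 1.18 to 16.7 FPKM, and *Cxcr7*, a receptor that scavenges the chemokine CXCL12, from 1.24 to 11.9. *Cxcr4*, the signalling receptor of the same chemokine, rose from 5.21 to 29.3 FPKM. *Vstm2b* had 6.36 FPKM in MES, 36.8 in HB and 0.0473 in HP.

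The largest falls were those of *Igfbp3*, which binds insulin-like growth factors, the Nodal antagonist *Lefty1* and *Cdh1*, which encodes E-cadherin. *Igfbp3* went from 139 to 5.95 FPKM, *Lefty1* from 41.1 to 2.00 and *Cdh1* from 77.8 to 6.64. These genes lie at chr11:7206091-7213923, chr1:180935039-180938401 and chr8:106603368-106670246 on GRCm38. Next in order were *Fgf8*, *Cldn7*, *Gbp1*, *Nefl*, *Nt5e*, *Cldn6*, *Wnt8a*, *Gbp2*, *Pim2*, *Dnd1*, *Fgf5* and *Ppp4r4*, with changes between -3.29 and -2.69. The falling genes thus held growth factors of the primitive streak, claudins of epithelial junctions and guanylate binding proteins. *Nefl*, a neurofilament chain, fell from 60.5 to 5.72 FPKM, and *Nt5e*, the ectoenzyme CD73, from 15.1 to 0.840.

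Of 10 measured receptor genes of the VEGF, TIE and apelin list, which also holds related vascular receptors, 7 rose, *Kdr* included. Of 19 genes of this list in the table, 15 reached 1 FPKM, 9 rose and 1 fell, with a median change of 1.28 that includes *Kdr*. *Nrp1*, a co-receptor of VEGF and of semaphorins, had 4.88 FPKM in MES and 47.0 in HB, and its relative *Nrp2* had 23.9 and 51.1. The sphingosine 1-phosphate receptor *S1pr1*, the semaphorin receptor *Plxnd1* and *Tek* (TIE2), which later marks hemogenic endothelium, rose from lower levels, to 3.54, 4.50 and 2.14 FPKM. *Flt1* and *Flt4*, the other VEGF receptors, stayed within 2-fold, at 2.38 and 1.54 FPKM in HB. The ligand genes *Vegfa* and *Vegfc* rose too, *Vegfa* from 1.37 to 5.17 FPKM and *Vegfc* from 1.43 to 5.45. Of the other ligand genes, *Vegfb* had 6.37 FPKM in MES and 6.47 in HB and *Pgf* had 1.85 and 1.30, both within 2-fold.

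The apelin pair moved in opposite directions. The receptor gene *Aplnr* rose from 7.35 to 28.3 FPKM, and the ligand gene *Apln* fell from 25.5 to 3.98. *Apln* was the only member of the list that fell.

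Among TF genes of the hemangioblast and endothelium, those that passed the limit all rose. Of 25 in the table, 20 reached 1 FPKM, 10 rose and 0 fell, and their median change was 1.0003. TAL1 binds DNA in a complex with an E protein, LMO2, LDB1 and a GATA factor. Of 7 measured genes of this complex, its relatives and *Hhex*, 5 rose. *Gata2* rose from 0.471 to 6.48 FPKM, *Hhex* from 0.905 to 4.74 and *Lyl1*, the closest relative of *Tal1*, from 0.207 to 1.51, a change that was 0.99 and under the limit after upper quartile scaling. The partner genes *Ldb1* and *Tcf3* were already at 16.3 and 21.0 FPKM in MES and stayed within 2-fold. Thus the DNA-binding and bridging members that are specific to blood and endothelium changed, and the widely expressed partners did not pass the limit.

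Among ETS factors, *Fli1*, *Etv2* and *Ets1* rose, and 6 others, among them *Ets2*, *Etv6* and *Gabpa*, stayed within 2-fold. *Etv2*, which is needed transiently for the first endothelial and blood cells, rose from 8.45 FPKM in MES to 46.7 in HB, and had 2.02 in ESC before and 2.06 in HP and 0.0217 in MAC after. It was thus measured in MES already and was highest in HB among the stages used. *Fli1* had 14.6 FPKM in HB and rose further, to 25.2 in HP and 39.5 in MAC. *Ets1* went from 5.49 to 14.04 FPKM. Of the SoxF genes, *Sox7* rose from 0.0893 to 2.65 FPKM, and *Sox17* and *Sox18* stayed under 1 FPKM, at 0.650 and 0.702 in HB. The Notch target *Hey1* rose from 2.16 to 7.66 FPKM.

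Several genes of the endothelial surface rose, most of them to low levels. Of 24 in the table, 12 reached 1 FPKM and 7 of these rose, with a median change of 1.03. *Egfl7*, a secreted vascular factor that also hosts a microRNA, had the highest value with 30.8 FPKM in HB against 9.25 in MES. *Ramp2*, *Esam*, *Plvap*, *Icam2*, *Rasip1* and *Cdh5* (VE-cadherin) reached between 1.29 and 6.46 FPKM. *Cdh5* had 0.346 FPKM in MES and 1.70 in HB, against 10.8 in HP. Its change of 1.01 was 0.94 after upper quartile scaling, below the limit, as was that of *Rasip1* with 0.95. *Pecam1* stayed within 2-fold at 1.51 FPKM, and *Cd34*, *Emcn* and *Tie1* were under 1 FPKM.

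Blood genes were in part measured at HB and in part not. Of 21 in the table, 10 reached 1 FPKM and 4 rose. *Zfpm1* (FOG1), a cofactor of GATA1, rose from 3.17 to 16.4 FPKM, and *Runx1*, which is needed for the later transition from endothelium to blood, from 0.585 to 4.87. *Runx1* then reached 19.2 FPKM in HP. The embryonic globin *Hbb-bh1* had 0.268 FPKM in MES and 2.70 in HB, against 5182 in HP, and globin values are uncertain because only uniquely aligned reads were kept. *Itga2b* (CD41) had 0.185, 1.51 and 62.5 FPKM in MES, HB and HP. *Gata1*, with 0.0470 and 1.07 FPKM, and *Nfe2*, with 0.0656 and 1.13, ended just under the limit, at 0.98 and 0.998. *Klf1*, *Gfi1*, *Gfi1b* and *Spi1*, listed as *Sfpi1*, stayed under 1 FPKM in both stages. In all, 11 of the 21 blood genes were under 1 FPKM in both MES and HB. The heatmap across stages holds none of these 11. It shows *Gata1* and *Itga2b*, which reached 1 FPKM in HB, brightest in HP.

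**Figure D2:**
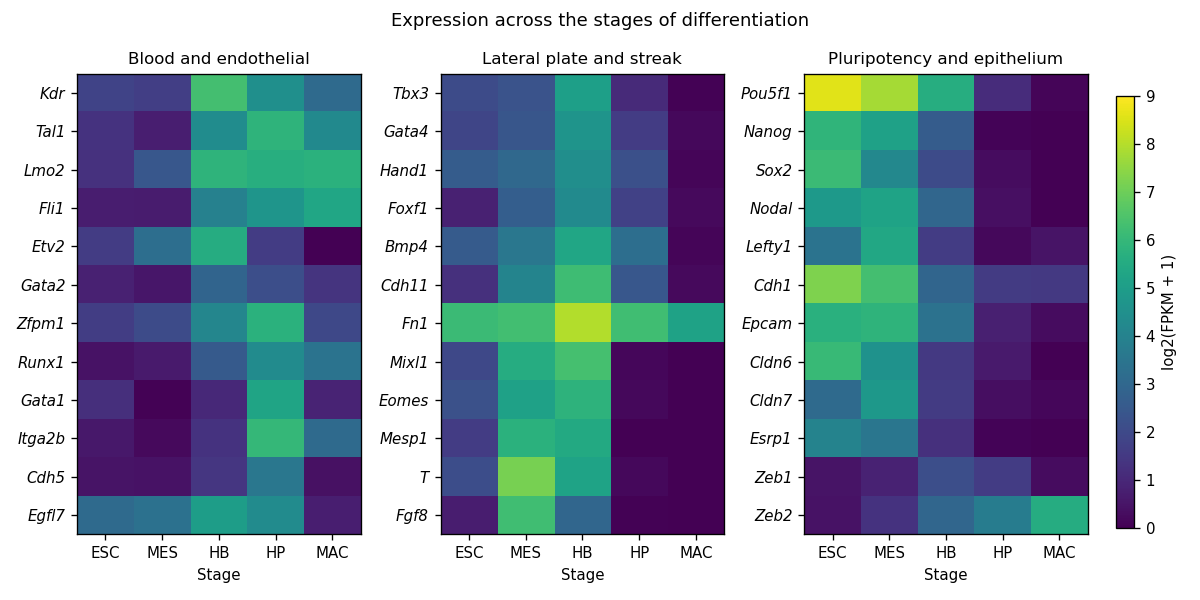
Expression of 36 genes from ESC (left) through MES, HB and HP to MAC (right), as log2(FPKM + 1) from 0 (dark) to 9 (bright), 1 value per stage. HE, the stage between HB and HP, is not shown. *Kdr*, *Etv2* and the lateral plate genes are brightest in HB, *Gata1* and *Itga2b* in HP, and *Cdh1* and *Pou5f1* darken from ESC through MES to HB.

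Among all lists, that of the heart and lateral plate had the largest share of rising genes, 60.9%. The VEGF, TIE and apelin list was close to it, with 60.0%. Some members, such as *Gata4* and *Gata6*, are counted in other lists too. Of 32 genes, 23 reached 1 FPKM, 14 rose and 0 fell, with a median change of 1.28. The T-box repressor *Tbx3* rose from 3.99 to 32.5 FPKM and *Gata4*, a GATA factor of heart and endoderm, from 4.34 to 24.4. *Tbx20* rose to 11.3, *Msx2* to 30.7, *Foxf1*, which marks splanchnic mesoderm, to 18.8, *Gata6* to 9.03 and *Hand1*, a bHLH factor of lateral and extraembryonic mesoderm, to 20.8 FPKM. *Hand2* and *Tbx2* rose from under 1 FPKM to 2.78 and 1.65. *Pdgfra*, a receptor of mesoderm and cardiac precursors, had 6.30 FPKM in MES and 16.7 in HB. The myosin light chains *Myl7* and *Myl4* rose to 5.66 and 2.52 FPKM. The definitive heart genes *Nkx2-5*, *Tbx5* and *Tnnt2* stayed under 1 FPKM in both stages, and *Isl1* stayed within 2-fold.

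In the list of primitive streak factors, 19 of 22 genes reached 1 FPKM, 7 fell and 0 rose, with a median change of -0.79. The falls were uneven. *Fgf8* fell from 74.8 to 6.76 FPKM, *Fst*, which encodes the activin antagonist follistatin, from 111 to 17.1, and *Msgn1*, a bHLH factor of presomitic mesoderm, from 11.1 to 2.23. *Cdx2*, *Sp8* and *Wnt3a*, genes of the posterior streak and tail bud, fell by 1.61, 1.46 and 1.29. In contrast *Mixl1* had 46.9 FPKM in MES and 80.4 in HB, and *Eomes* had 34.9 and 55.0, neither of which reached the limit. *Evx1*, *Gsc*, *Lhx1* and *Wnt3* were also within 2-fold. *T* and *Msgn1* therefore fell, while *Mixl1* and *Eomes*, a homeobox and a T-box gene of early mesoderm, did not.

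Of 8 paraxial mesoderm genes with at least 1 FPKM, *Tcf15* and *Msgn1* fell and *Cyp26a1*, which degrades retinoic acid, rose from 49.99 to 115 FPKM. *Cyp26a1* was the only one of 11 measured retinoic acid genes that changed. The other 8 paraxial genes of the list, among them *Tbx6*, *Meox1* and *Foxc2*, were under 1 FPKM. Endoderm factors divided. *Gata4*, *Gata6*, *Hhex* and *Cxcr4*, which mesoderm shares, rose, and *Otx2*, *Ovol2* and *Trh* fell, *Trh* from 180.4 to 27.6 FPKM, while *Foxa2* and *Sox17* were under 1 FPKM. Of 42 *Hox* and *Cdx* genes, 38 were under 1 FPKM in both stages. *Hoxb2* alone rose, from 1.03 to 3.92 FPKM, and *Hoxd1* reached 1.71.

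Many pluripotency and epiblast factors fell. Of 29 genes, 28 reached 1 FPKM, 15 fell and 1 rose, with a median change of -1.08. *Pou5f1* fell 4.58-fold and *Nanog* from 34.6 to 5.19 FPKM. *Sox2* fell from 17.2 to 3.13 FPKM, after 69.4 in ESC. *L1td1*, *Utf1*, *Dppa5a*, *Zfp42* (REX1), *Prdm14* and *Dppa4* also fell, *Dppa5a* from 156 to 52.6 FPKM. In the primed epiblast, *Fgf5* fell from 17.2 to 1.81 FPKM and *Otx2* from 13.9 to 4.90. The genes of the LIN28 axis did not follow. *Lin28a*, which blocks the maturation of let-7 microRNAs, had 106 FPKM in MES and 116 in HB, *Lin28b* had 17.6 and 22.0, and *Trim71* had 49.2 and 57.4. *Sall4* was level too, at 41.7 and 43.7 FPKM. The 1 member that rose was *Tbx3*, which is also in the lateral plate list.

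Of 7 DNA methylation genes, the de novo methyltransferase *Dnmt3b* fell from 74.6 to 36.6 FPKM and its cofactor *Dnmt3l* from 9.27 to 2.59, while *Dnmt3a* stayed at 12.1 and 11.2. *Uhrf1*, which guides maintenance methylation, was at 67.8 and 79.3 FPKM. Of 8 germ cell genes with at least 1 FPKM, *Nanos3*, *Prdm14* and *Tfap2c* fell, *Nanos3* from 3.53 to 0.325 FPKM.

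The list with the largest share of falling genes, among those with at least 3 measured members, was that of the epithelium. Of 23 in the table, 22 reached 1 FPKM, 17 fell and 0 rose, and the median change was -1.59. *Cdh1* went from 77.8 FPKM in MES to 6.64 in HB, after 152 in ESC, and *Epcam*, an epithelial adhesion molecule, from 57.0 to 9.51, after 51.4. The tight junction claudins fell together, *Cldn7* from 26.7 to 1.93 FPKM, *Cldn6* from 22.9 to 1.81, *Cldn4* from 30.5 to 4.51 and *Cldn3* from 2.28 to 0.219. The same direction held for the junction proteins *Ocln*, *Marveld3* and *Pkp3*, the polarity gene *Crb3*, the transport regulator *Rab25* and the epithelial splicing factor *Esrp1*, which went from 10.5 to 1.38 FPKM. The membrane protease *St14* and its inhibitors *Spint1* and *Spint2* fell by 2.21, 1.21 and 1.57. *Grhl2*, a TF of epithelia, fell from 3.37 to 0.934 FPKM.

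Not all epithelial genes fell. The keratins *Krt8* and *Krt18*, which pair with each other, had 98.6 and 119.6 FPKM in MES and 94.3 and 123 in HB, while *Krt19* fell from 80.5 to 25.7. The desmosome gene *Dsp* stayed at 30.4 and 31.1 FPKM. *Krt8*, *Krt18* and *Dsp* were thus level where adhesion and tight junction genes fell.

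Among mesenchymal genes, 11 of 14 reached 1 FPKM, 4 rose and 0 fell, with a median change of 0.76. *Cdh11*, a cadherin of mesenchyme, rose from 15.6 to 72.8 FPKM and *Fn1*, fibronectin, from 76.7 to 248. The repressor genes *Zeb1* and *Zeb2* rose, from 0.824 to 3.52 and from 1.497 to 6.76 FPKM. *Snai1*, which acts in the streak, had 4.17 FPKM in MES and 4.18 in HB, and *Snai2* was under 1 FPKM. *Cdh2* (N-cadherin) was at 13.96 and 25.4, just short of the limit, and *Vim* at 199.8 and 261. Of these repressors the ZEB genes changed, and *Snai1* was level.

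**Figure D3:**
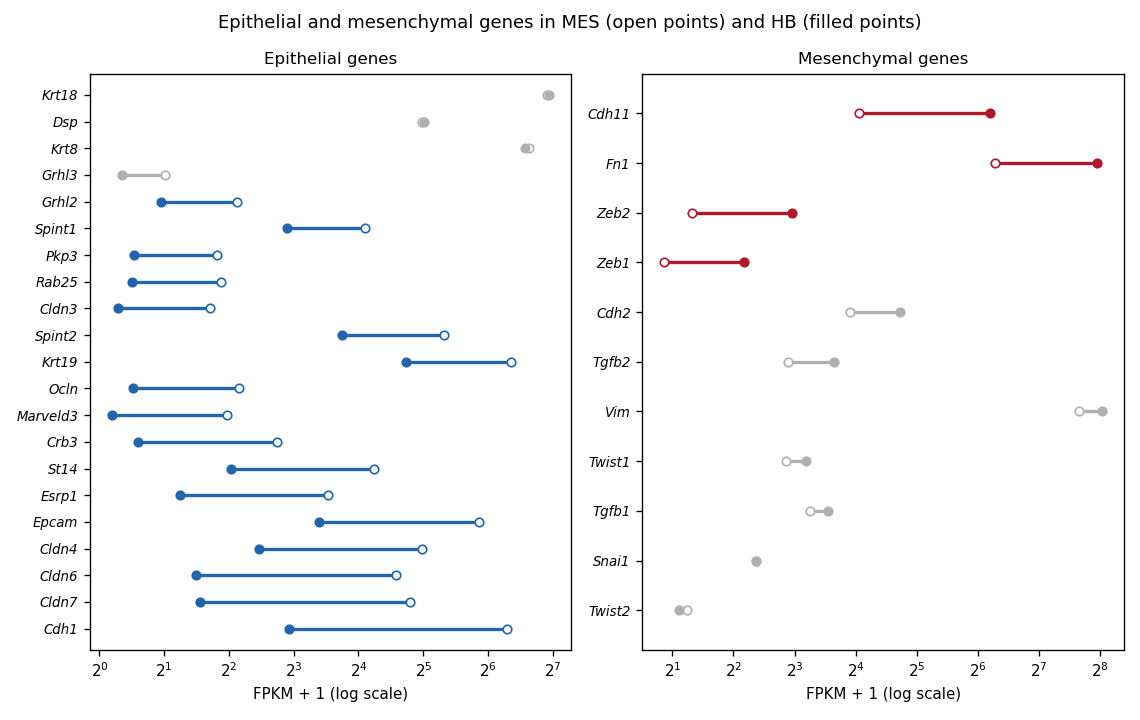
FPKM + 1 in MES (open points) and HB (filled points) for 21 of the 22 epithelial and for the 11 mesenchymal genes with at least 1 FPKM, on log scales. Blue lines mark the 17 epithelial genes that fell, red lines the 4 mesenchymal genes that rose and grey lines changes under 2-fold.

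The promoters of the epithelial genes were read because these genes moved together and because ZEB and SNAIL repressors bind the E-box CAGGTG. RefSeq windows of 300 bases (GRCm38.p6), from 250 bases before to 50 after a transcription start, were searched for CAGGTG on both strands, which reads CACCTG on the other strand. Of the 22 epithelial genes, 14 had a window. Of the 17 that fell, 10 had one, and *Cdh1* had none and was not read. The motif was in at least 1 window of 13 of the 14 genes, all but *Spint1*. By windows this was 15 of 17, 88.2%, against 20.2% of all 32851 promoter windows and 17.2% of the windows of genes with at least 1 FPKM in MES or HB. The motif did not set the falling members apart, since *Krt8*, *Krt18*, *Dsp* and *Grhl3*, which did not fall, held it too. Over all genes that fell, 33.0% of 306 windows held it, and 30.7% of 293 without the epithelial list, against 15.2% of 237 windows of genes that rose. Further genes of epithelia outside the list fell too, so the 293 windows can still hold epithelial genes. These are counts of letters and show no binding.

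Below are the promoters of 5 epithelial genes that fell, chosen because each holds at least 2 copies of the motif. Each is given 5′ to 3′ on the strand of its gene, from 250 bases before the RefSeq start to 30 after it, with CAGGTG and CACCTG in capitals. *Epcam* (chr17:87635729-87636008, plus strand) and *Rab25* (chr3:88548250-88548529, minus strand) hold 2 copies each, *Cldn4* (chr5:134946905-134947184, minus strand) holds 2, with 1 of them after the start, *Spint2* (chr7:29281948-29282227, minus strand) holds 3, and *Crb3* (chr17:57061981-57062260, plus strand) holds 4.
Epcam: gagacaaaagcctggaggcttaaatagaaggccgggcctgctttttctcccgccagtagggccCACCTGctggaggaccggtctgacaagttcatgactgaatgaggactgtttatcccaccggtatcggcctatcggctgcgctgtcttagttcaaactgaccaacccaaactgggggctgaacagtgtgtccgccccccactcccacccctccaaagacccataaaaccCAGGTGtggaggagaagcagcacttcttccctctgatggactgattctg
Rab25: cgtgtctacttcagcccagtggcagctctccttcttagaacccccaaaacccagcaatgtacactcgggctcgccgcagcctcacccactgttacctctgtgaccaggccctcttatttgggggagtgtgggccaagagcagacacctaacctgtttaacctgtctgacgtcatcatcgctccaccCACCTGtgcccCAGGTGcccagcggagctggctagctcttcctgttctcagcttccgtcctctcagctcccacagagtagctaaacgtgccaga
Cldn4: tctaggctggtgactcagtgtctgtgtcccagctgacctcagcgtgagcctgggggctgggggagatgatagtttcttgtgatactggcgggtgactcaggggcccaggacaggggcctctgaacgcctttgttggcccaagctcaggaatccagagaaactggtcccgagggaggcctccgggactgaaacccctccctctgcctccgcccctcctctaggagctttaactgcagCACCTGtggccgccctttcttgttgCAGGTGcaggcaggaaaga
Spint2: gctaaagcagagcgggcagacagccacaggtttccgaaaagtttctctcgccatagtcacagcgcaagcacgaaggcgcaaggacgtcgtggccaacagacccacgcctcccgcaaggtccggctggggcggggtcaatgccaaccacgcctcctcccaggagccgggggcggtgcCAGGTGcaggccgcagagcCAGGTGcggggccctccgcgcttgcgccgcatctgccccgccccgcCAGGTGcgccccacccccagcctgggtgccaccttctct
Crb3: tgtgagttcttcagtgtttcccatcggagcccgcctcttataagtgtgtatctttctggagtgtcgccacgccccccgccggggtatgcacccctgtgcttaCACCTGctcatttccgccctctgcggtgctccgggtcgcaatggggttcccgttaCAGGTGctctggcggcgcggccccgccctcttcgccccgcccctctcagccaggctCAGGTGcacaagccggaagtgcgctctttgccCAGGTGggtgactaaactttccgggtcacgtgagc

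The 5 genes shown here had 57.0, 2.67, 30.5, 38.8 and 5.70 FPKM in MES and 9.51, 0.424, 4.51, 12.4 and 0.513 in HB, in the order of their sequences. Of the copies before the start, the nearest began 19 bases before the start in *Epcam*, 53 in *Rab25*, 14 in *Cldn4*, 9 in *Spint2* and 5 in *Crb3*. Other motifs were searched on both strands in the windows of the genes that rose. The ETS motif CCGGAA was in 12.2% of their windows, against 14.9% of all windows and 28.9% of those of genes with at least 1 FPKM in MES or HB. In the same order, the shares were 6.33%, 11.2% and 5.65% for the GATA motif AGATAA and 15.2%, 14.7% and 12.0% for the TEAD motif GGAATG. They were 10.5%, 16.0% and 11.2% for the TCF/LEF motif CTTTGA and 5.91%, 4.02% and 2.62% for the octamer part TGCAAAT. Against the genes with at least 1 FPKM, the ETS share was thus lower and the octamer share higher. In the windows of the genes that fell, the ETS share was 11.4% and the GATA share 6.21%. Their shares were 14.7% for the TEAD motif, 12.4% for the TCF/LEF motif and 3.59% for the octamer part. The low ETS share was therefore not particular to the genes that rose.

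Some genes of the extracellular matrix changed. Of 13 collagen chains with at least 1 FPKM, 3 rose and 0 fell. *Col4a1* and *Col4a2*, the main chains of basement membrane collagen IV, which lie next to each other on chromosome 8, rose from 12.3 to 53.6 and from 4.95 to 27.0 FPKM. Of 13 measured laminin and other basement membrane genes, 2 rose and 2 fell. The mesodermal chain *Lama4* and the linker *Nid1* rose, *Lama4* from 2.30 to 8.97 FPKM, and *Lama5*, a chain of epithelia, fell from 16.8 to 7.63. After upper quartile scaling *Nid1*, at 0.97, no longer passed the limit.

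Of 13 genes of the provisional matrix and its proteoglycans, 6 rose and 1 fell, with a median change of 0.97. *Fbn2*, *Vcan*, *Hapln1* and *Has2*, which makes hyaluronan, rose with *Fn1* and *Gpc3*. *Has2* went from 15.1 to 45.1 FPKM, *Vcan*, a proteoglycan that binds hyaluronan, from 5.38 to 18.0 and *Gpc3* from 41.2 to 109. *Thbs1* fell, from 5.05 to 1.08 FPKM. Among the integrins, *Itga9* and *Itga2b* rose, *Itga3* and *Itgb8* fell, and *Itgb1* stayed at 122 and 146 FPKM.

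Of the guidance molecules, *Efnb2* rose from 13.2 to 35.5 FPKM, and the receptors *Epha1* and *Epha2* fell, from 31.8 to 5.84 and from 28.9 to 6.90. The other 13 of 16 measured Eph and ephrin genes stayed within 2-fold. Among 20 semaphorin, plexin, slit and netrin genes, 4 rose (*Plxna4*, *Plxnd1*, *Sema3f* and *Unc5c*) and 3 fell (*Sema6a*, *Slit3* and *Ntn1*). *Plxna4* had 0.371 FPKM in MES and 5.61 in HB. With *Nrp1* and *Nrp2*, which pair with plexins, 4 receptor genes of this system were higher in HB; *Unc5c* and *Nrp2* were short of the limit after upper quartile scaling, at 0.97 and 0.91.

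In the BMP pathway, 23 of 30 genes reached 1 FPKM, 9 rose and 1 fell, with a median change of 0.91. The ligand genes *Bmp4*, *Bmp2* and *Bmp5* rose, *Bmp4* from 10.9 to 39.4 FPKM, *Bmp2* from 1.81 to 10.9 and *Bmp5* from 0.570 to 3.55. The receptors *Bmpr1a*, *Bmpr2* and *Acvr1* stayed within 2-fold. Some targets and inhibitors rose as well. Of 11 measured transducers and targets, 4 rose, 1 fell and 6 stayed within 2-fold, and of 4 measured antagonists 2 rose. *Smad6*, an inhibitory SMAD, went from 9.73 to 31.0 FPKM, *Bambi*, a decoy receptor, from 6.84 to 21.1, and *Msx2* from 9.07 to 30.7. The extracellular regulator *Bmper* rose to 11.1 FPKM.

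The *Id* genes, which are direct BMP targets, did not move as 1 group. *Id3* rose from 50.5 to 111 FPKM, *Id2* fell from 21.7 to 9.32, and *Id1* was at 103 and 76.3. With upper quartile scaling, the change of *Id3* was 0.96, under the limit.

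In the Nodal pathway, 17 of 23 genes reached 1 FPKM, 5 fell and 0 rose. Those that fell were extracellular. *Nodal* fell from 35.9 to 6.76 FPKM, its relative *Gdf3* from 4.27 to 0.681, and the feedback inhibitors *Lefty1* and *Lefty2* from 41.1 to 2.00 and from 40.9 to 12.3. With *Fst* these were all 5. The intracellular members were level or slightly higher: *Foxh1*, the TF that mediates Nodal responses, had 51.8 FPKM in MES and 83.1 in HB, and *Smad2*, *Smad3* and *Smad4* changed by 0.27, 0.07 and 0.05 on the log2 scale. The co-receptor *Tdgf1* (Cripto) was at 92.2 and 64.6 FPKM. The median of the list, 0.05, lies below that of all genes and changed sign with upper quartile scaling, to -0.10.

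FGF ligands changed most. Of 8 ligand genes with at least 1 FPKM, *Fgf3* and *Fgf10* rose and *Fgf8*, *Fgf5* and *Fgf17* fell. *Fgf3* rose from 6.06 to 62.2 FPKM, with 1.29 in ESC and 5.08 in HP, and *Fgf10* from 2.20 to 20.1, with 1.25 in ESC and 5.48 in HP. Both were highest in HB among the stages used. *Fgf8* was highest in MES, at 74.8 FPKM against 0.659 in ESC and 6.76 in HB. Among 11 feedback regulators and targets, *Dusp6*, a phosphatase of ERK, fell from 125 to 50.7 FPKM and *Etv5* from 22.2 to 8.55. *Spry1*, *Spry2*, *Spry4*, *Dusp4* and *Etv4* changed between -0.58 and -0.07, and 0 of the 11 rose. Of 5 receptor genes listed, 4 were found in the table and 3 reached 1 FPKM. These 3, *Fgfr2* and *Fgfr3* among them, stayed within 2-fold. The 4 summed to 7.15 FPKM in MES and 11.8 in HB.

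In the Wnt pathway, 44 of 63 genes reached 1 FPKM, 6 rose and 3 fell, and the median of 0.08 changed sign with upper quartile scaling, to -0.06. Among the ligands, *Wnt8a* fell from 13.99 to 0.859 FPKM and *Wnt3a* from 1.72 to 0.117, while *Wnt2* rose from 0.648 to 6.49 and *Wnt2b* from 0.809 to 3.54. *Wnt3*, *Wnt5a* and *Wnt5b*, the ligands with the highest values, stayed within 2-fold, at 21.9, 16.5 and 16.6 FPKM in HB. The antagonist *Dkk1* rose from 2.06 to 11.8 FPKM, the intracellular inhibitor *Nkd1* from 1.63 to 6.36 and the R-spondin receptor *Lgr5* from 0.196 to 2.90. The general target *Axin2* was level, at 15.9 and 18.6. *Fzd7* rose from 12.8 to 28.3 FPKM, by 0.94 after scaling and then short of the limit, and *Ror2* fell from 9.76 to 3.49.

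**Figure D4:**
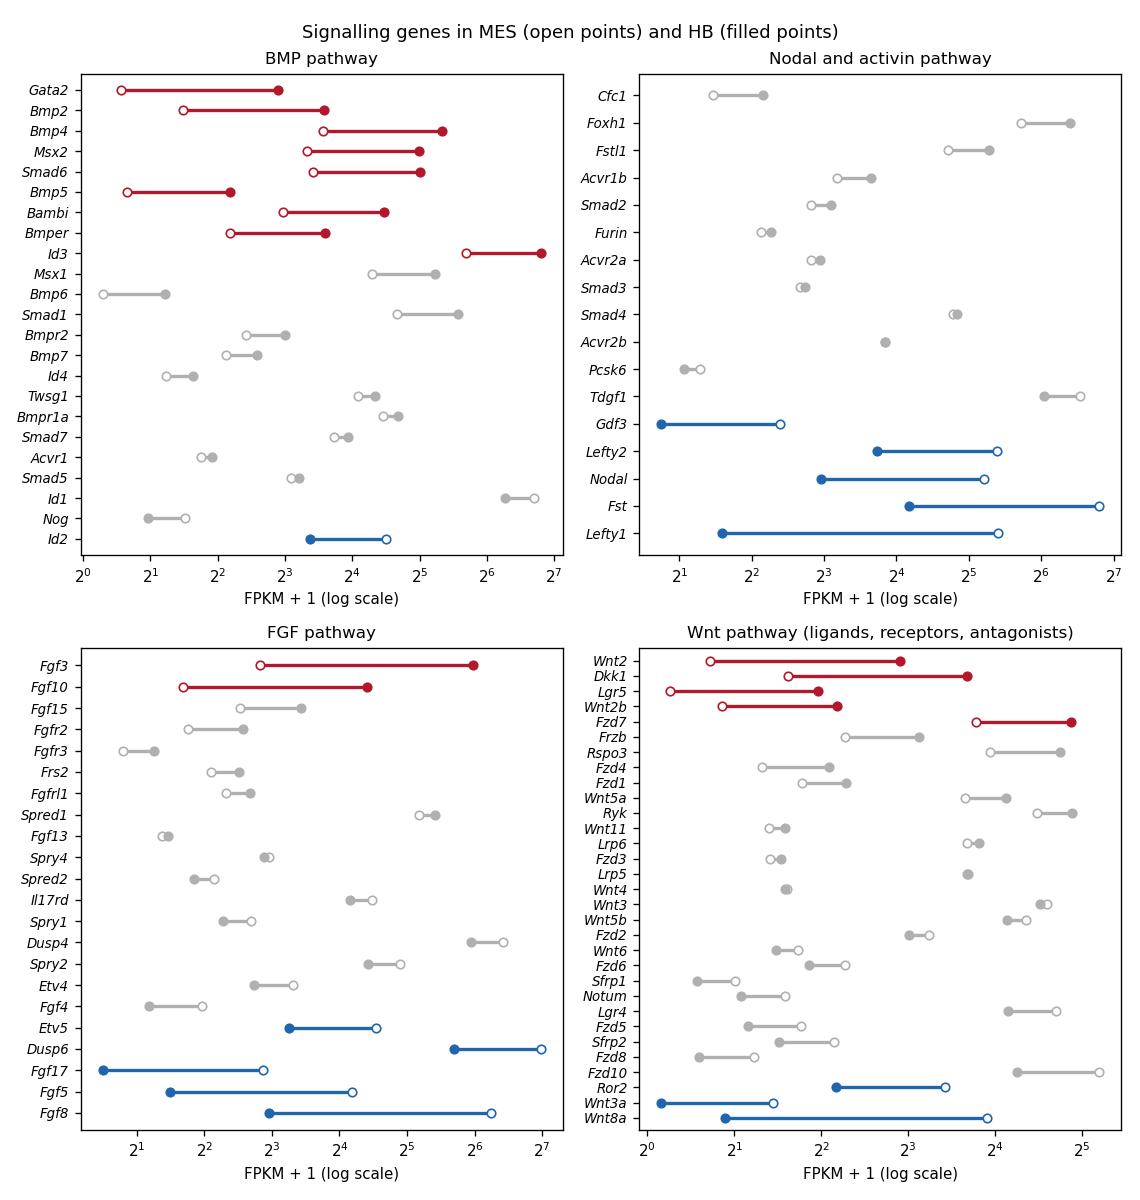
FPKM + 1 in MES (open points) and HB (filled points), on log scales, for the measured genes of the BMP, Nodal and FGF pathways and the ligands, receptors and antagonists of the Wnt pathway. Red lines mark rises and blue lines falls of at least 2-fold. *Lefty1* and *Fgf8* have the largest falls and *Fgf3* the largest rise, and the receptors of the BMP and Nodal panels are grey, apart from the decoy receptor *Bambi*.

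Other pathways changed in few members. Of 14 Notch genes with at least 1 FPKM, *Hey1* rose, and *Notch1*, *Notch2* and *Notch3* stayed within 2-fold. All 4 measured Notch ligand genes were lower in HB, with changes between -0.91 and -0.28, but 0 of them passed the limit. In the Hippo pathway, *Tead4*, a TF through which YAP acts, rose from 1.52 to 6.20 FPKM, and the other 20 of 21 genes did not pass the limit. *Tead2*, the family member with the highest value, was at 61.4 and 72.5 FPKM and *Yap1* at 51.1 and 67.5. The YAP targets *Cyr61* and *Ctgf* had 31.4 and 8.78 FPKM in MES and 20.3 and 5.32 in HB.

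Insulin-like growth factor genes and imprinted genes held large changes at high values. *Igf2* rose from 14.3 to 53.3 FPKM and reached 109 in HP. Of its binding proteins, *Igfbp4* rose from 18.4 to 75.4 FPKM while *Igfbp3* fell 23.4-fold and *Igfbp2* was at 79.8 and 49.6. The receptors *Igf1r* and *Igf2r* were level. Of 15 imprinted genes with at least 1 FPKM, 6 rose and 1 fell. *Mest* went from 42.6 to 156 FPKM, *Phlda2* from 80.3 to 248, *Slc38a4*, an amino acid transporter, from 56.0 to 166 and *Peg3* from 73.9 to 179.7. *Zim1*, next to *Peg3* on chromosome 7, rose from 0.746 to 2.93 FPKM, and *Nnat* fell. Of the 6 that rose, *Igf2*, *Mest*, *Peg3* and *Slc38a4* are known as paternally expressed and *Phlda2* and *Zim1* as maternally expressed. The other 8, among them *Peg10*, *Grb10* and *Cdkn1c*, stayed within 2-fold.

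Genes of growth and metabolism changed little. Of 46 cytosolic ribosomal protein genes, 0 passed the limit, and their median of 0.14 was -0.01 after upper quartile scaling. Of 29 cell cycle genes, *Ccnd2* (cyclin D2) alone rose, from 9.28 to 22.3 FPKM, beside 46.6 and 77.8 for *Ccnd1*. The genes of S phase and mitosis were level, *Mki67* at 20.2 and 27.1. Of 21 glycolysis genes, *Pfkp* rose and *Ldhb* and *Pdk1* fell. *Ldhb* fell from 26.7 to 9.82 FPKM, and *Ldha*, the other lactate dehydrogenase, was at 144 and 250.2. None of the 20 sterol synthesis genes passed the limit, but 18 of them lay above 0, with a median change of 0.43 against 0.13 for all genes.

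**Figure D5:**
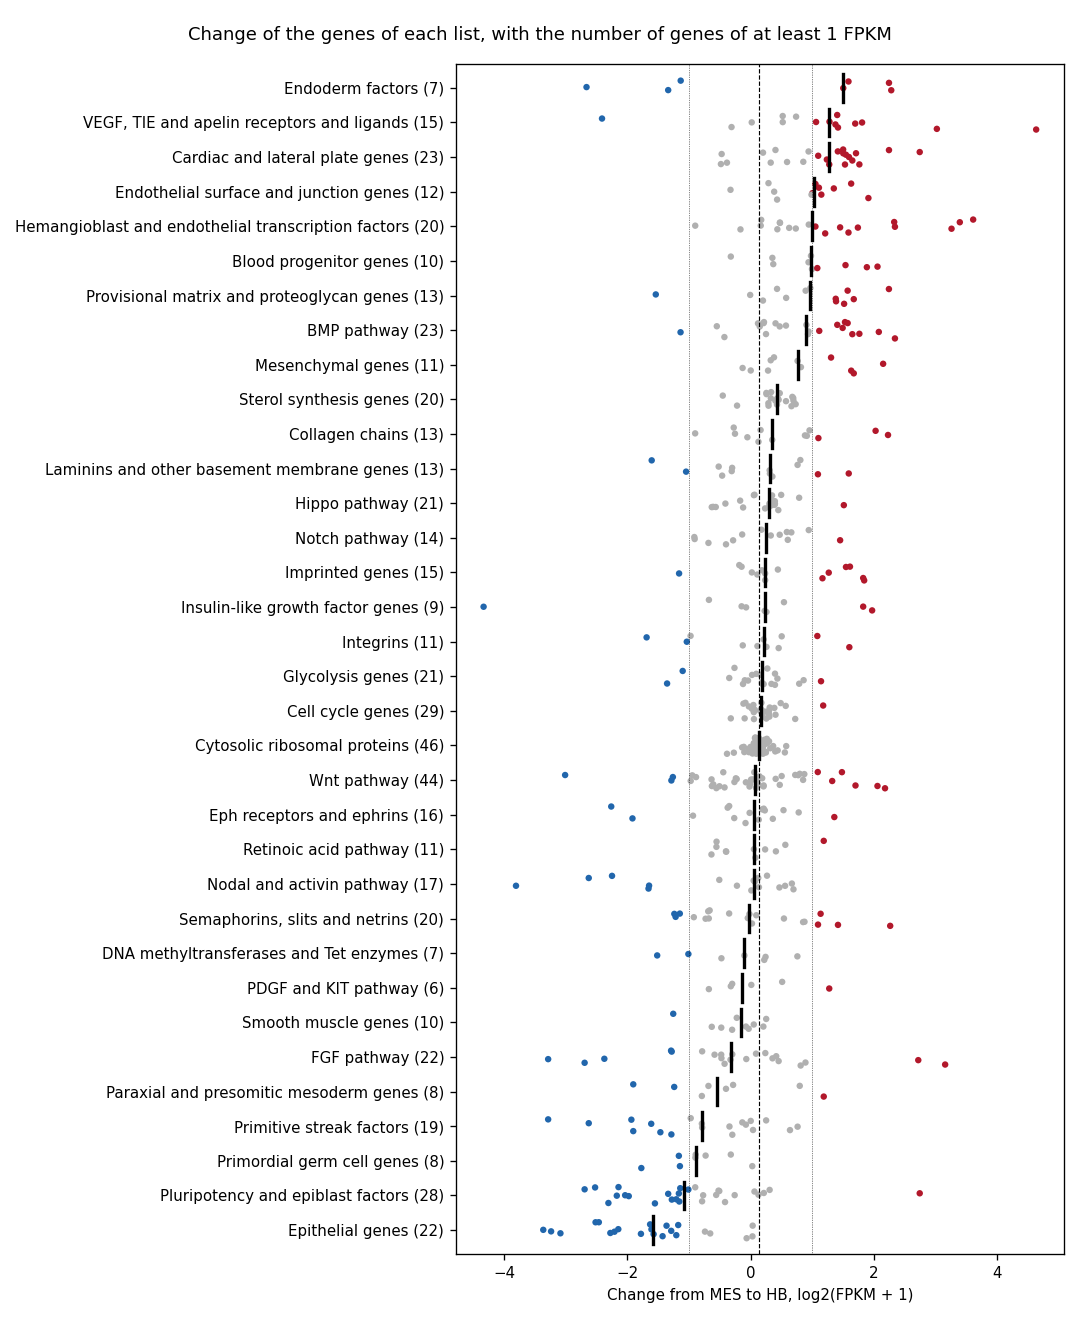
Each point is the change of 1 gene from MES to HB on log2(FPKM + 1), and each row is a gene list with its number of genes of at least 1 FPKM, ordered by median (thick bar). Red and blue points passed the 2-fold limits (dotted lines), and the dashed line is the median of all genes, 0.13. By median, epithelial genes lie lowest, and endoderm factors, VEGF, TIE and apelin genes and lateral plate genes lie highest. The 7 endoderm factors are divided, with 4 that rose and 3 that fell.

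Most markers of feeder cells, extraembryonic endoderm, mature blood and ectoderm were under 1 FPKM in both stages, and those of smooth muscle were not. Of 9 fibroblast genes, which could mark feeder cells, 3 reached 1 FPKM, with a sum over the list of 6.81 FPKM in MES and 6.66 in HB. Of 14 genes of extraembryonic endoderm, only *Lamb1*, which mesoderm also expresses, reached 1 FPKM, and *Ttr* was listed at 0 in MES and at 0.0168 in HB. Of 11 genes of mature blood, *Hbb-bh1* and *Cd68* reached 1 FPKM, *Lyz1* was listed at 0 in both stages and *Ptprc* (CD45) was at 0.00858 and 0.00173 FPKM. Of 15 ectoderm genes, *Sox2* and *Nes* reached 1 FPKM, and *Sox1*, *Pax6* and *Krt5* were below 0.1 FPKM in both. Of 10 measured smooth muscle genes, *Tagln* fell from 62.9 to 25.8 FPKM and 0 rose, with a sum over the list of 395 FPKM in MES and 347 in HB, and *Myh11* was under 1 FPKM.

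In a few genes the change depended on the transcription start site (TSS), since the table gives each TSS a value of its own. Of 128 genes with at least 2 TSSs of 5 FPKM or more in MES or HB, 6 had TSSs whose changes differed by at least 1.5 on the log2 scale. *Egfl7* rose at 1 TSS, from 0.904 to 18.0 FPKM, and stayed within 2-fold at the other, with 8.35 and 12.8. *Rgs12* showed the reverse, with 1 TSS that fell from 5.77 to 0.341 FPKM beside 1 at 6.51 and 5.79. The 3 TSSs of *Lmo2* all rose, the strongest of them from 2.66 to 41.7 FPKM.

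Genes that rose or fell were in part neighbours. With the 10193 loci of the tested genes set in order along the chromosomes, 42 of the genes that rose stood in 19 runs of at least 2 neighbours that rose, and 64 of those that fell in 29 runs that fell. Over all tested genes, 2.53% rose and 3.30% fell, and the number of runs to be expected from these shares was not computed. Genes under 1 FPKM can lie between such neighbours, and several runs hold members of the same gene family. *Fli1* and *Ets1*, 2 ETS genes on chromosome 9, formed a run of 3 with the potassium channel gene *Kcnj5*. *Cdh5* and *Cdh11* stood in a run of 3 cadherin genes on chromosome 8 that rose. Among the falls, *Cdh1* stood beside *Cdh3*, *Cldn3* beside *Cldn4*, *Ocln* beside *Marveld2* and *Nanog* beside *Gdf3*.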

How the data were processed

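RNA was depleted of ribosomal RNA and sequenced as 50-base single-end SOLiD reads. According to the methods, SHRiMP placed the reads on mm10 (GRCm38), reads with more than 1 position and Picard duplicates were discarded, and the authors computed FPKM per TSS with Cufflinks, with the replicates of a stage combined; versions are not given in the sources used here. The deposited FPKM values hold no read counts. Among 985 TSSs above 0 and under 0.03 FPKM in both stages, the most common ratio of HB to MES, 1.064, covered 3.86%, so most values did not show whole reads and the depth behind a value is unknown. Unique alignment lowers genes with near-identical copies.

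TSS values were summed per gene. A gene was counted where it had at least 1 FPKM in MES or HB and changed at least 2-fold on log2(FPKM + 1). With 1 column per stage no test was possible. Named genes are the 15 largest rises and falls among genes whose higher stage reached 10 FPKM, the sorting markers, genes with TSSs that changed in opposite directions, and, in 39 gene lists, the changed members, those with the highest values and those that define the list. *Egfl7*, *Rgs12*, *Lmo2* at its TSSs, the neighbouring genes and the genes nearest to the limits were named after their values were seen. Some genes that these rules take in are not reported here. Motifs were searched in RefSeq promoter windows of GRCm38.p6, and a window was printed where its start lay within 50 bases of the start in the table. The members and lists were chosen with earlier results of these data known. The counting was tested on simulated data. The alternatives were pseudocounts of 0.1 and 0.001, a minimum of 5 FPKM, no minimum, upper quartile scaling (over genes above 0) and a 4-fold limit. The HE stage, 1 column of values, is not analysed here, and neither is the fibroblast table. The tools were NumPy 2.4.6, pandas 2.3.3 and matplotlib 3.10.9 under Python 3.11.15.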

Additional observations from a re-analysis of the deposited data

How the results depend on the processing

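No paired analysis was possible because the replicates of each stage are combined in 1 column. The numbers of genes that rose and fell, 258 and 337, became 397 and 607 with a pseudocount of 0.1, 414 and 643 with 0.001, 171 and 190 with a minimum of 5 FPKM, and 35 and 53 with a 4-fold limit. Without a minimum they were 258 and 337, since the limit on log2(FPKM + 1) already asks for at least 1 FPKM. Upper quartile scaling gave 218 and 414. This scaling lowers HB against MES, so all 337 genes that fell had to stay called, and only the rises could be lost. Of the 258 genes that rose, 218 were also called after it. The share of rising genes among all changed genes went from 43.4% to 34.5%. All 192 changed genes of the lists and of the largest changes kept their direction and stayed past 2-fold with both other pseudocounts. This had to be so, because a smaller pseudocount can only enlarge a change, and it is no check of these genes. After scaling, 184 of the 192 stayed past 2-fold. The other 8, all of them genes that rose, were *Cdh5*, *Fzd7*, *Id3*, *Lyl1*, *Nid1*, *Nrp2*, *Rasip1* and *Unc5c*. The medians of 5 of 41 lists changed sign with scaling, those of the Nodal, Wnt, retinoic acid, Eph and ribosomal lists, to values between -0.10 and -0.01. With no replicate columns, the spread of any value between samples is unknown, and changes near 2-fold or from values near 1 FPKM are the least certain.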

Other observations

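The following genes lie outside the lists above, or in lists that were written after the values were seen, so that their counts describe a choice made on these values. Many interferon-inducible genes fell. Of 65 in the table, 45 reached 1 FPKM, 20 fell and 0 rose, with a median change of -0.83. By role, 9 of 10 measured guanylate binding and immunity-related GTPase genes fell, 4 of 7 antigen processing genes, 6 of 16 antiviral effectors and 1 of 12 signalling genes and factors. The guanylate binding proteins, GTPases that act against intracellular pathogens, were among the largest falls. *Gbp2* fell from 53.5 to 6.43 FPKM, *Gbp1* from 37.1 to 3.03 and *Gbp3* from 14.4 to 2.18, and *Gbp7*, *Gbp4* and *Gbp9* fell from lower values. The values of these genes are uncertain to the extent that they share near-identical sequence. *Gbp7*, *Gbp3*, *Gbp1* and *Gbp2* are neighbours on chromosome 3, and *Parp14*, *Parp9* and *Dtx3l*, which fell by 1.68, 2.12 and 1.76, are neighbours on chromosome 16.

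Other members were spread over several roles. The immunoproteasome genes *Psmb8*, *Psmb9* and *Psmb10* fell, *Psmb8* from 32.1 to 7.64 FPKM and *Psmb10* from 69.5 to 28.3, with the peptide transporter *Tap2*. The TF gene *Irf1*, which mediates interferon responses, fell from 46.2 to 12.2 FPKM, *Bst2* from 30.2 to 7.74 and *Isg15* from 7.95 to 1.24. Upstream in the pathway, the kinase gene *Jak1* had 9.20 FPKM in MES and 11.3 in HB, and the receptor gene *Ifngr2* had 4.07 and 7.85. Genes such as *Ifit1*, *Oas2* and *Mx1* were under 1 FPKM in both stages. In ESC, *Gbp2* had 21.8 FPKM and *Irf1* had 16.0.

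Because many of these genes fell, their RefSeq promoter windows were searched for GAAANNGAA, the core of the element bound by interferon regulatory factors, on both strands. The motif was chosen after the values were seen, and it was shortened by 1 base after the result of a longer form was known. It was in 16 of the 43 windows of members with at least 1 FPKM, 37.2%, and in 7 of the 15 windows of those that fell, 46.7%, against 8.56% of all windows and 7.84% of the 306 windows of all genes that fell. The longer form, with 1 more A at its end, was in 15 of the 43, 34.9%, and in 7 of the 15, 46.7%, against 3.44% of all windows. By gene, the shorter form was in 16 of 36 members with a window, and in 7 of the 13 that fell. Members that did not fall thus held it too. The list was made of interferon-inducible genes, so a share above that of all windows says nothing about the fall. The windows of 3 neighbours on chromosome 3 are shown 5′ to 3′ on the strand of the gene, from 250 bases before the start to 30 after it, with the element in capitals: *Gbp2* (chr3:142620413-142620692, plus strand), *Gbp3* (chr3:142559794-142560073, plus strand) and *Gbp7* (chr3:142530086-142530365, plus strand).
Gbp2: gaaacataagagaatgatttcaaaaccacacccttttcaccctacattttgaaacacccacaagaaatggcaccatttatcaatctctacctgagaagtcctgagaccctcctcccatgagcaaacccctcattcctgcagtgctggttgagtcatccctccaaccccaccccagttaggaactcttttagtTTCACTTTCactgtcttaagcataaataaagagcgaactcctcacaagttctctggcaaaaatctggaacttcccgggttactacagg
Gbp3: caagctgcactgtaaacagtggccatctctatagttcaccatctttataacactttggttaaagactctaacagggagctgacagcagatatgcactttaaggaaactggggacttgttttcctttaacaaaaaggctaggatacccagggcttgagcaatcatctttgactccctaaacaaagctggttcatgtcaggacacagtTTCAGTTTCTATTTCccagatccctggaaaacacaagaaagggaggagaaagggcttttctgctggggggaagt
Gbp7: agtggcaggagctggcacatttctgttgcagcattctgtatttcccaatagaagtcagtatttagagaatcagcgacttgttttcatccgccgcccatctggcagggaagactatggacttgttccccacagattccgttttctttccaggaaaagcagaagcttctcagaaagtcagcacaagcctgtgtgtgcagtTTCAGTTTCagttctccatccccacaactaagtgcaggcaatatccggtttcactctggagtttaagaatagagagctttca

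The metallothionein genes *Mt1* and *Mt2*, which bind zinc and are adjacent on chromosome 8, fell from 46.0 to 9.93 and from 28.7 to 5.74 FPKM. *Mtf1*, the TF that induces them, had 1.29 and 1.84 FPKM. Further genes of epithelia that were in no list fell too, among them *Sfn* (14-3-3 sigma) from 12.3 to 1.36 FPKM, *Perp* from 19.4 to 7.03, *Prom1* from 18.6 to 6.25 and the TF gene *Elf3*. In the other direction, *Myc* rose from 6.77 to 17.7 FPKM, the angiomotin gene *Amot* from 51.2 to 167, the thrombin receptor *F2r* from 25.3 to 79.6, *Podxl* from 12.0 to 39.3 and the cytokine receptor *Lifr* from 5.71 to 20.1.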
